A study of Mus musculus with 24 samples.

Results

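The 10 genes described here are textbook markers of the cells that form and surround the vessels of the brain, and their rows were found by gene symbol among the 49315 genes of the count tables. *Pecam1*, *Cdh5*, *Kdr* and *Cldn5* mark endothelial cells, *Pdgfrb*, *Rgs5*, *Acta2* and *Tagln* mark pericytes and vascular smooth muscle cells (together mural cells), and *Dcn* and *Lum* mark fibroblasts. Each symbol matched 1 row. The libraries were made from primary astrocytes, the star-shaped glia of the brain, which were isolated from cortices of late-gestation wild type C57BL/6J embryos after removal of the meninges, pooled over the embryos of a dam and grown in medium with serum. Cultures received 0 Gy (mock irradiation), 0.1 Gy or 2 Gy of X-rays at 1 Gy/min and were harvested 6 h or 24 h later, which gives 6 groups of 4 libraries. The libraries carry the replicate numbers 1 to 4, and the methods describe no sorting of the cells. The study asked how astrocytes respond to radiation, and here the markers were used to ask how far genes of vascular cells and fibroblasts were expressed in the cultures and whether their levels differed between the doses and times.

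Brain endothelial cells line the capillaries and seal them with tight junctions, and pericytes sit on the capillary wall, held there by signalling through platelet-derived growth factor receptor beta. Smooth muscle cells wrap arterioles and contract through smooth muscle actin and its partner proteins. Fibroblasts lie in the meninges and along larger vessels and deposit collagen with the small proteoglycans decorin and lumican. Smooth muscle actin and transgelin are not confined to vessels, since many cell types switch on contractile genes when they are grown on plastic in serum, and fibroblasts also carry the platelet-derived growth factor receptor.

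Library totals lay between 14742855 and 38194800 counts (median 24829888.5). Markers of the labelled cell type were abundant. In TPM (counts per gene length, scaled to the same total in each library), the medians over the 24 libraries were 304.3 for *Gfap*, 273.3 for *Aqp4* and 1242 for *Fabp7*, and 11 of 12 astrocyte markers had a median of at least 1. The medians of all 10 microglial markers lay between 10.4 and 395.5 TPM. Libraries of replicate 2 stood apart from the rest, with a summed microglial marker level of 250.1 to 278.5 CPM (counts scaled to library size after TMM normalization, not per length) against 1325 to 1876 CPM in the other 18 libraries. All 10 microglial genes lay lower in the 6 libraries of replicate 2 than in any other library, as did 7.74% of the 14331 genes with a mean CPM of at least 1.

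The markers differed by orders of magnitude in level per length. *Acta2* encodes smooth muscle alpha-actin and had a median of 6133 TPM (lowest 3525, highest 11882), which placed it at rank 9 of all genes by mean TPM. *Tagln* encodes transgelin, a protein that binds actin filaments, and had a median of 1193 TPM (477.0 to 1863) and rank 50. *Pdgfrb* (chr18:61045150-61085061), the receptor on pericytes, had a median of 29.4 TPM (18.9 to 44.6). These 3 genes were read in every library, with at least 855 counts.

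The other markers had lower levels. *Kdr* encodes the main receptor for vascular endothelial growth factor and had a median of 3.23 TPM (1.12 to 5.65). *Cdh5* encodes the cadherin of endothelial junctions and had a median of 1.06 TPM (0.217 to 2.74). *Rgs5*, a regulator of G-protein signalling that marks brain pericytes, had a median of 0.611 TPM but reached 10.2 TPM in the highest library. *Pecam1*, an adhesion molecule of endothelial cells that blood cells and platelets also carry, had a median of 0.235 TPM (0.123 to 0.703). *Dcn*, the gene of decorin, had a median of 0.83 TPM (0.146 to 4.43), and *Lum*, the gene of lumican, had a median of 0.106 TPM (0 to 0.570).

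*Cldn5*, the main claudin of the tight junctions of brain capillaries, had 0 counts in 21 of 24 libraries and 4 counts in all. Its 3 libraries with reads were all of replicate 2, with 1 count at 0 Gy and 6 h, 1 count at 0 Gy and 24 h and 2 counts at 0.1 Gy and 24 h. At these depths, 0 counts allow a level of up to 0.0781 to 0.204 CPM, the lowest and the highest level that 3 counts have in a library (counting error only). *Lum* had 0 to 13 counts and was at 0 in 6 libraries, so neither gene passed edgeR's filter on low counts.

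Other genes of the same cell types also differed widely in level. Of 16 other endothelial genes, 11 had a median under 1 TPM, and *Sox17*, a transcription factor of arterial endothelium, was at 0 in every library. The 3 with the highest mean level were *Mfsd2a*, a lipid transporter of the blood-brain barrier (median 309.8 TPM), *Slco1a4*, an organic anion transporter (42.1 TPM), and *Plvap*, a protein of fenestrated vessels (2.99 TPM). Of 12 other mural genes, 8 had a median under 1 TPM, while *Mcam* (179.4 TPM), *Notch3* (29.2 TPM) and *Cox4i2* (6.59 TPM) were the highest. Of 12 contractile genes, 11 had a median of at least 1 TPM, led by *Myl9* (1010 TPM), *Flna* (833.2 TPM) and *Cnn2* (655.3 TPM). Of 18 other fibroblast and matrix genes, 15 had a median of at least 1 TPM, with *Ogn* (183.2 TPM), *Col1a1* (123.8 TPM) and *Islr* (190.8 TPM) at the top. Thus *Cldn5*, *Lum*, *Pecam1*, *Rgs5*, *Dcn* and *Cdh5* had medians between 0 and 1.06 TPM, while *Pdgfrb*, *Mcam*, *Notch3* and *Mfsd2a* were higher. The part that other cell types have in these levels was not tested.

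**Figure D1:**
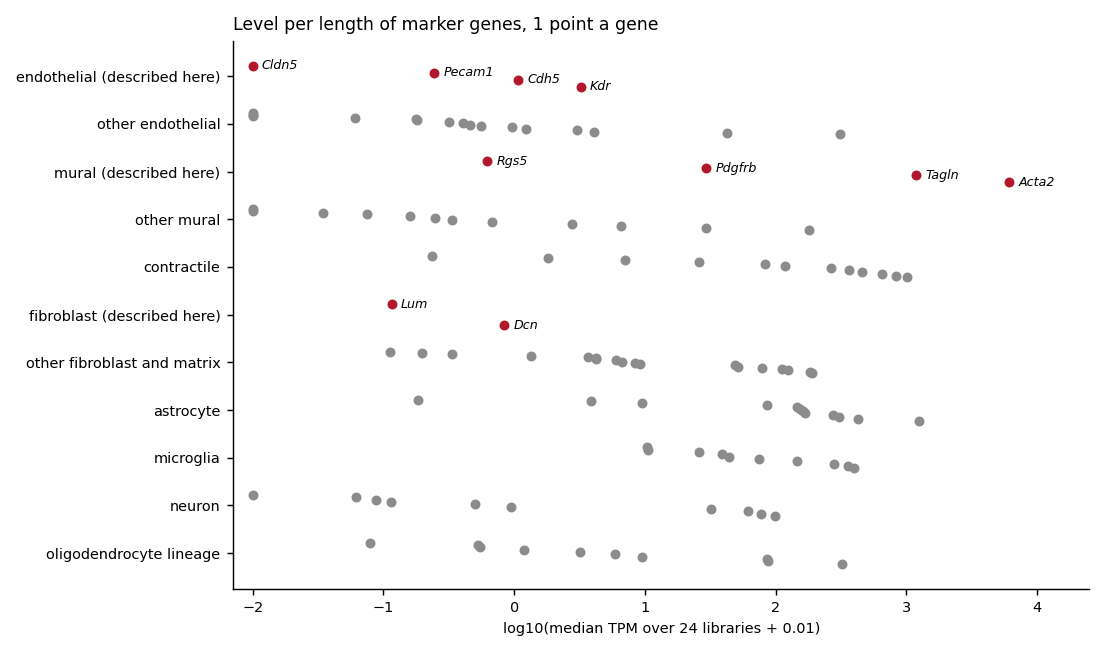
Each point is a gene placed by log10 of its median TPM over 24 libraries plus 0.01, with the 10 markers described here in red and the other genes of each cell type list in grey. *Acta2* and *Tagln* lie at the far right, as do *Myl9*, *Flna* and *Cnn2* of the contractile genes, whereas *Cldn5*, *Lum* and *Pecam1* lie at the left, below all 10 microglial markers.

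Coordinates are those of the count tables (GRCm38). *Pecam1* spans chr11:106654217-106750628, *Cdh5* chr8:104101625-104144511, *Kdr* chr5:75932827-75978458 and *Cldn5* chr16:18776847-18778260. *Rgs5* spans chr1:169655501-169695813, *Acta2* chr19:34241090-34255336 and *Tagln* chr9:45929619-45936058. *Dcn* at chr10:97479500-97518162 and *Lum* at chr10:97565501-97572703 are neighbours. In GENCODE M21, the antisense gene *Gm48529* (361 to 1607 counts per library) lies inside *Tagln*, whose end overlaps *Pcsk7* by 108 bases, and *Gm29682* (0 to 2 counts) overlaps *Cdh5*. The sources used here do not say whether strand was counted, so reads of *Tagln* and *Gm48529* cannot be told apart if it was not. Reads of *Acta2* can also match the other actin genes, such as *Actg2*.

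Contractile genes are classical targets of serum response factor, which binds the CArG box, and the region upstream of *Acta2* is shown because this gene was the most abundant of the 10. It is the 250 bases before the RefSeq start site (GRCm38.p6, chr19:34255374-34255623, minus strand), written 5′ to 3′ with matches to the CArG box in capitals, where a match was allowed at most 1 G or C among its 6 central bases.
*Acta2*: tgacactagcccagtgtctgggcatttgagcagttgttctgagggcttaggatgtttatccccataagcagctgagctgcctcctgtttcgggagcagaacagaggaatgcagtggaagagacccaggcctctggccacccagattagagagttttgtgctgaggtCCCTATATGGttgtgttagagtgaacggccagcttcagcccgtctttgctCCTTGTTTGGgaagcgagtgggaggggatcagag
The matches start 84 and 34 bases before the start site and each has 1 central G or C. The box reads in both directions, so both strands were searched. Of 32851 mouse promoters of the same length, 8.59% held at least 1 such match and 0.670% held 2 or more. The promoter table also listed *Kdr*, with 1 match, and *Rgs5* and *Cldn5*, with no match. *Pecam1*, *Cdh5*, *Pdgfrb*, *Tagln*, *Dcn* and *Lum* were not in this table.

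In raw shares of the variation, given below, the levels of the markers followed the replicate number more than the dose or the time. The 6 libraries of a number are read together over both times here. Equal numbers may not be the same cultures at both times. At 0 Gy, replicate 3 of 24 h resembled another number at 6 h (r = 0.527) more than its own (0.0887). *Rgs5* differed most. In the 6 libraries of replicate 2, at both times and all doses, it had 206 to 432 counts, and in the other 18 libraries it had 6 to 60 counts. In CPM, replicate 2 had a lowest, median and highest level of 7.19, 10.3 and 15.2. Replicate 1 had 0.920, 1.25 and 1.75, replicate 4 had 0.859, 1.02 and 1.46, and replicate 3 had 0.220, 0.586 and 0.807. The median of replicate 2 was 11.2 times that of the other 18 libraries, and the lowest library of replicate 2 was above the highest of the rest.

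*Kdr* was also higher in each library of replicate 2 (13.9 to 16.7 CPM, median 14.7) than in the other 18 libraries (median 9.67 CPM). The highest library of the others was 0.1 Gy and 6 h of replicate 3, at 13.2 CPM, so the gap was small beside that of *Rgs5*. *Kdr* and *Rgs5* were 2 of the 7 markers with a mean CPM of at least 1, and among all 14331 such genes 4.08% lay higher in replicate 2 than in any other library. *Cdh5* and *Pdgfrb* had their highest medians in replicate 2 as well (3.43 and 75.8 CPM), but their ranges overlapped those of the other numbers. For *Pdgfrb* the library at 2 Gy and 24 h, the lowest of replicate 2, was at 69.3 CPM and the highest of replicate 4 at 70.5 CPM. *Pecam1* went the other way, with its lowest median in replicate 2 (0.344 CPM) and the highest in replicate 3 (0.844 CPM), and its ranges overlapped too.

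*Acta2* was highest in replicate 3. The 6 libraries of replicate 3 had 5260 to 7365 CPM, with a median of 6105, and lay above the other 18, whose highest was 4732 CPM. The lowest median was that of replicate 2, at 3537 CPM. Of all genes with a mean CPM of at least 1, 0.23% lay higher in replicate 3 than in any other library, and of the 11 contractile genes in this set, *Cnn2*, *Myl9* and *Tpm2* did. *Tagln* had its highest median in replicate 3 too (1117 CPM, 913.3 to 1409), but replicate 1 reached 1185 CPM and replicate 4 reached 1230 CPM.

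*Dcn* had its highest median in replicate 1, at 2.62 CPM (1.09 to 4.34), against 0.861 CPM in replicate 2, 0.432 CPM in replicate 4 and 0.338 CPM in replicate 3. A single library of replicate 4, at 0 Gy and 6 h, reached 3.53 CPM with 72 counts, while the other 5 of this number had 7 to 24 counts. *Lum* had a median of 0.210 CPM in replicate 1 and 0.140 CPM in replicate 2 and was near 0 in replicates 3 and 4 (0.018 and 0.017 CPM).

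Genes of the other lists that separated the numbers were looked up after their values were seen. In all 6 libraries of replicate 2, *Tbx18*, a transcription factor of pericytes and smooth muscle (3.08 to 5.49 CPM), *Mcam*, *Esam*, *Abcb1a*, *Plvap* and *Thy1* lay above the other 18 libraries. These were 2 of 5 mural genes, 3 of 9 endothelial genes and 1 of 15 fibroblast genes with a mean CPM of at least 1, beside 4.08% of all such genes. Other genes of these lists went the other way, since *Vwf*, *Ocln*, *Slco1a4* and *Anpep* had their lowest medians in replicate 2. *Islr* (61.9 to 91.4 CPM), 1 of the 15 fibroblast genes, and *Cnn1* and *Myl9*, 2 of the 11 contractile genes, lay below the other 18 libraries in all 6 libraries of replicate 2, as did 7.74% of all genes. *Postn* (81.3 to 115.1 CPM) and *Col6a3* (24.6 to 36.9 CPM), genes of the fibroblast matrix, lay highest in replicate 1, as did 0.0907% of all genes. *Col3a1*, the gene of type III collagen, had 56.7 to 119.1 CPM in replicate 1 and 49.2 to 80.4 CPM in replicate 2, but 2.07 to 4.37 CPM in replicate 3 and 1.30 to 4.60 CPM in replicate 4. *Vwf*, the gene of von Willebrand factor, and *Anpep*, an aminopeptidase of pericytes, lay highest in replicate 4, as did 0.251% of all genes. In these bulk libraries, more cells of a type and more RNA per cell cannot be told apart.

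**Figure D2:**
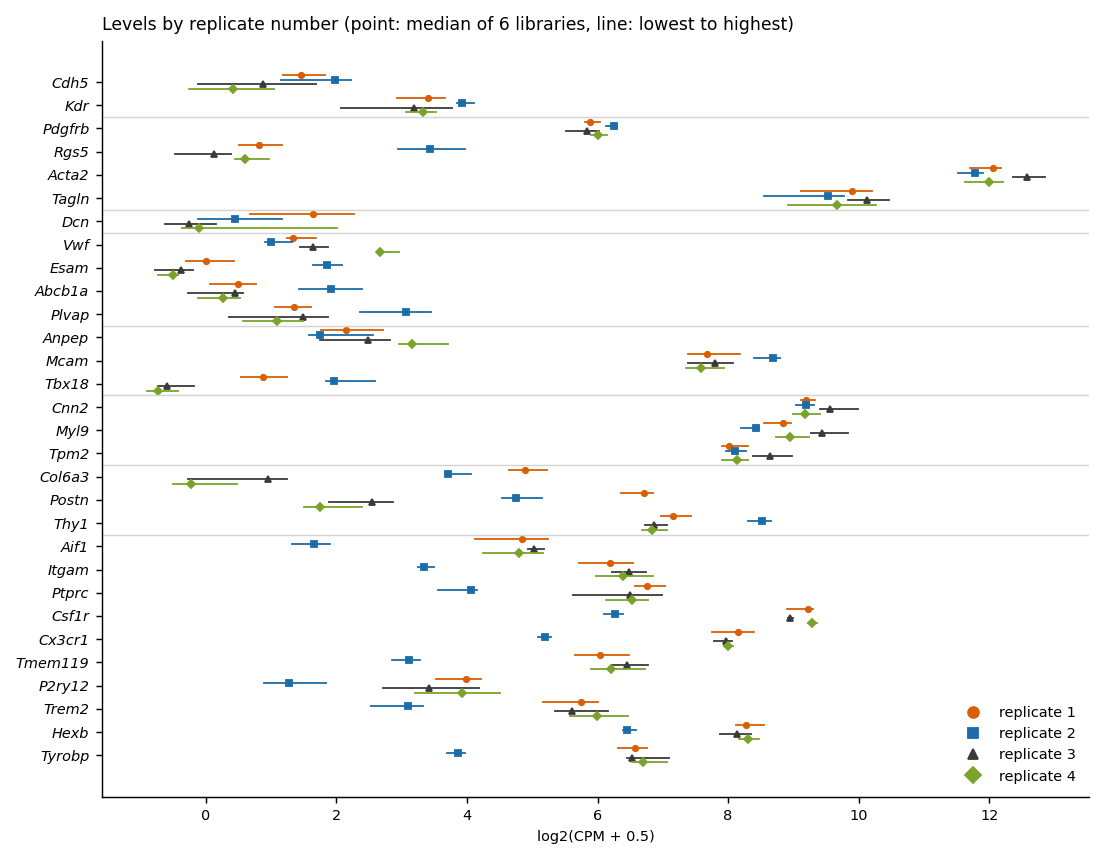
For each gene, the point is the median and the line runs from the lowest to the highest of the 6 libraries of a replicate number, on the scale log2(CPM + 0.5). Shown are the markers with a mean CPM of at least 1, the other vascular, contractile and fibroblast genes of which a number lies above all other libraries, and all 10 microglial genes, which are lowest in replicate 2 while *Rgs5* is highest there.

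The sums of squares of log2(CPM + 0.5) over the 24 libraries give the same order. The replicate number within a time took 97.0% of the variation of *Rgs5*, dose within a time took 0.558% and time took 0.0733%. For *Acta2* the number took 81.2%, for *Lum* (0 to 13 counts per library) 70.1% and for *Pdgfrb* 69.6%. *Kdr* and *Cdh5* had 66.0% and 65.0% with the number and 25.6% and 25.1% with time, and *Dcn* had 61.8% and 18.5%. The shares with the number were lowest for *Pecam1* (53.7%, with 23.5% for time) and for *Cldn5* (49.5%, with 2.97% for time), which had 4 counts in all. *Tagln* had the largest share with dose, 17.0%, beside 56.0% with the number. Over all genes with a mean CPM of at least 1, the medians were 52.2% for the number, 14.0% for time and 7.09% for dose. The terms differ in degrees of freedom, with the most for the number and the fewest for time. Their raw shares therefore differ even where nothing has an effect, and the 17.0% of *Tagln* does not by itself show an effect of dose.

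**Figure D3:**
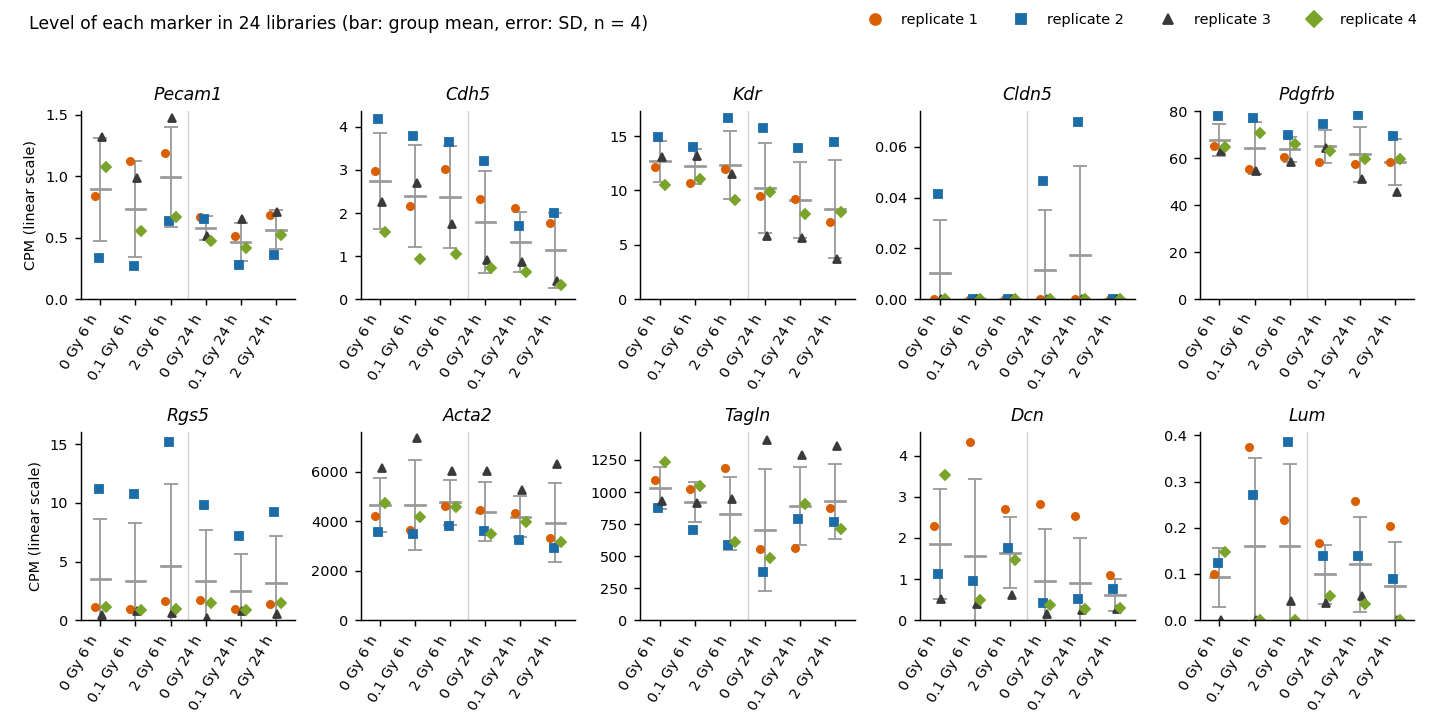
Each panel plots the CPM of a marker (linear scale from 0) in the 4 libraries of each dose and time, coloured by replicate number, with the group mean and the SD over n = 4 in grey (error bars end at 0). Replicate 2 sits far above the rest for *Rgs5* in each group, replicate 3 is the highest for *Acta2* in each group, and *Cdh5* and *Kdr* have lower means at 24 h than at 6 h.

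*Cldn5* had a median of 0 in all 6 groups. Across the groups, the median levels of each other marker formed an order in which all 5 pairs of neighbouring groups overlapped, and the highest and the lowest group overlapped as well. The widest order was that of *Dcn*, from 1.70 CPM at 0 Gy and 6 h to 0.392 CPM at 0 Gy and 24 h. *Cdh5* ran from 2.61 CPM at 0 Gy and 6 h to 1.10 CPM at 2 Gy and 24 h, and *Kdr* from 12.6 to 7.55 CPM between the same groups. *Pdgfrb* was the most even, from 64.9 CPM at 0 Gy and 6 h to 58.5 CPM at 0.1 Gy and 24 h.

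Irradiation was compared with 0 Gy at each time by edgeR's quasi-likelihood test on 4 against 4 libraries, with p-values adjusted over all genes by the Benjamini-Hochberg method. The threshold for a call was an adjusted p of 0.05, with no minimum fold change. *Cldn5* and *Lum* did not pass the filter on low counts in any comparison and *Dcn* did not at 2 Gy and 24 h. None of the 8 markers tested was called for 0.1 Gy at 6 h, where 0% of 16020 genes were called, and none of 8 for 0.1 Gy at 24 h, where 0% of 16183 genes were. None of 8 was called for 2 Gy at 6 h (0% of 15994 genes) and none of 7 for 2 Gy at 24 h (0% of 15892 genes). Without adjustment, 24, 241, 215 and 570 genes had a p under 0.05 in these 4 comparisons. DESeq2 called 0, 0, 1 and 103 genes, none of them among the 9, 10, 9 and 6 markers to which it gave an adjusted p. The replicate numbers pair the libraries within a time, and the fit with the number as a block called 0, 1107, 0 and 2100 genes. These were 0%, 6.84%, 0% and 13.2% of the genes tested.

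*Tagln* was the only marker called with the block, and it was called in 1 of these 4 comparisons. Its 4 libraries at 0 Gy and 24 h had 554.3, 375.5, 1409 and 482.1 CPM in the order of replicates 1 to 4. Those at 2 Gy and 24 h had 871.8, 769.4, 1357 and 714.3 CPM. It was higher after 2 Gy in replicates 1, 2 and 4, by 0.65, 1.03 and 0.57 on the log2 scale, and lower in replicate 3, by -0.05, where the 0 Gy library was the highest of all 24. The groups overlap, and the fit without the block gave a log2 fold change of 0.40 (SE 0.41, adjusted p = 0.940). The blocked fit gave 0.55 (SE 0.16, adjusted p = 0.0491), a call that was lost when GC content and gene length were corrected as well (0.40, adjusted p = 0.206). With the block and without replicate 1, 2, 3 or 4 in turn, the log2 fold change ran from 0.39 to 0.76 and the adjusted p from 4.68e-06, without replicate 3, to 0.243. The fit without replicate 3 called 33.1% of all genes. With no block and a library left out, the value ran from 0.18 (without the 2 Gy library of replicate 3) to 0.97 (without the 0 Gy library of replicate 3).

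At 0.1 Gy and 24 h, *Tagln* had 561.8, 792.9, 1291 and 908.4 CPM in replicates 1 to 4. The changes within pairs were 0.02, 1.08, -0.13 and 0.91. The log2 fold change was 0.32 (SE 0.42, adjusted p = 0.943), and with the block 0.46 (adjusted p = 0.0987). Without the block it ran from 0.099, without the 0.1 Gy library of replicate 3, to 0.90, without the 0 Gy library of replicate 3. In the blocked fit *Tagln* was called without replicate 1 (0.62, adjusted p = 0.0294) and without replicate 3 (0.67, adjusted p = 0.00899), in fits that called 7.18% and 23.2% of all genes. At 6 h, the log2 fold changes of *Tagln* were -0.16 (SE 0.17) after 0.1 Gy and -0.31 (SE 0.24) after 2 Gy. With a library left out they ran from -0.23 to -0.053 (without replicate 2 of 0 Gy and of 0.1 Gy in turn) and from -0.54 to -0.17 (without replicates 1 and 2 of 2 Gy in turn). The interaction of 2 Gy and time, the difference between the change at 24 h and that at 6 h, was 0.72 (SE 0.51, adjusted p = 0.819), and 0.92 (adjusted p = 0.0511) with the block. No marker of 8 was called in the interaction, where 0% of 16866 genes were called, or 6.78% with the block. Without replicate 3 the blocked interaction of *Tagln* was 1.26 (adjusted p = 0.00578), where 23.4% of all genes were called.

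The level of *Tagln* went along with the trend of the levels of all genes on GC content in each library. This trend ran from -0.42 to 0.47 on the log2 scale per 10 percentage points of GC. Over the 24 libraries, Pearson's r with the log2 level of *Tagln* was 0.878 (Spearman's rho 0.842, r = 0.843 without the 2 libraries farthest from the median trend). It is given without a p, since the libraries share replicate numbers. At 0 Gy and 24 h the trend was -0.38, -0.42, 0.25 and -0.21 in replicates 1 to 4, and at 2 Gy and 24 h it was -0.07, 0.01, 0.47 and -0.02. Thus the 3 libraries with the lowest *Tagln* at 0 Gy and 24 h had the 3 lowest trends of all 24. For the other 9 markers r ran from -0.523 (*Kdr*) to 0.308 (*Acta2*). The GC content of *Tagln* is 52.5%, near that of *Cdh5* (52.2%, r = -0.379) and below that of *Pdgfrb* (54.9%, r = -0.305). How many of all genes have an r as high as that of *Tagln* was not counted. The part of GC content in the change of *Tagln* was not tested beyond the corrected fit.

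**Figure D4:**
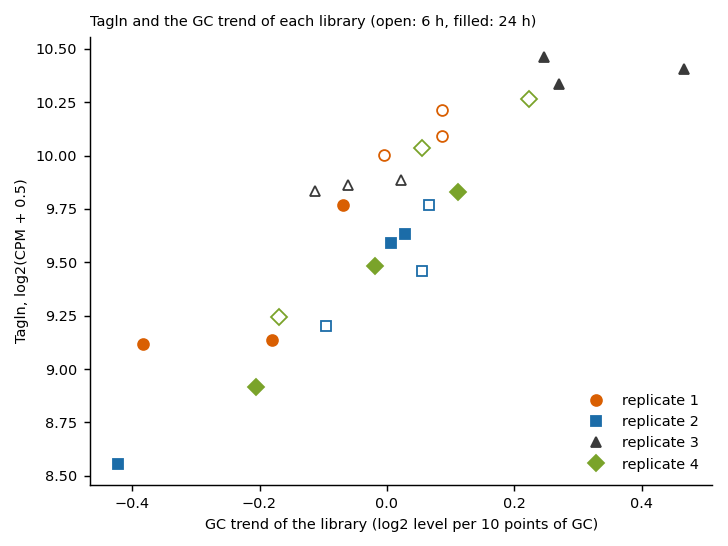
Each of the 24 libraries is placed by the slope of gene levels on GC content (log2 level per 10 percentage points, horizontal) and by log2(CPM + 0.5) of *Tagln* (vertical), coloured by replicate number, with 6 h open and 24 h filled. The points rise together (r = 0.878), with 0 Gy and 24 h of replicate 2 at the lower left and the 24 h libraries of replicate 3 at the upper right.

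The endothelial markers *Cdh5* and *Kdr* were lower in each pair after 2 Gy at 24 h, but neither was called. *Cdh5* had 2.34, 3.21, 0.918 and 0.731 CPM at 0 Gy and 1.77, 2.01, 0.424 and 0.334 CPM at 2 Gy, in the order of replicates 1 to 4. The changes within pairs were -0.32, -0.57, -0.62 and -0.56 on the log2 scale of CPM + 0.5. The fitted log2 fold change was -0.68 (SE 0.70, adjusted p = 0.940), and -0.74 (SE 0.25, adjusted p = 0.0752) with the block. Without the block it ran from -1.15, without the 2 Gy library of replicate 2, to -0.24, without the 0 Gy library of replicate 2. The libraries held 9 to 69 counts of this gene. *Kdr* had 9.51, 15.8, 5.77 and 9.82 CPM at 0 Gy and 7.08, 14.5, 3.72 and 8.01 CPM at 2 Gy. The log2 fold change of *Kdr* was -0.29 (SE 0.43, adjusted p = 0.940), and with the block -0.35 (SE 0.13, adjusted p = 0.0944). Without the 0 Gy library of replicate 2 the unblocked value was 0.0039, and without the 2 Gy library of replicate 2 it was -0.70. After 0.1 Gy at 24 h both genes were again lower in 4 of 4 pairs, by a median of -0.12 for *Cdh5* and -0.11 for *Kdr*, and these comparisons share their 0 Gy libraries with those of 2 Gy. Other endothelial genes had the opposite direction. Of 9 tested after 2 Gy at 24 h, 7 had higher fitted levels (median log2 fold change 0.28, or 0.25 with the block), as did 8 of 10 after 0.1 Gy at 24 h (median 0.10), and none was called.

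The other mural markers did not pass the test either. *Pdgfrb* had a log2 fold change of -0.15 (SE 0.17) after 2 Gy at 24 h and was lower in 4 of 4 pairs, with -0.49 in replicate 3 and -0.10 to -0.0029 in the others. The fold change ran from -0.25 (without the 2 Gy library of replicate 2) to -0.042 (without the 2 Gy library of replicate 3), and it was -0.28 (adjusted p = 0.0852) with the block and the GC and length correction. *Acta2* had -0.16 (SE 0.29), with lower levels in replicates 1, 2 and 4 and a higher one in replicate 3. Without the 0 Gy library of replicate 3 this value was 0.023, and without the 2 Gy library it was -0.46. With the block and without replicate 3, *Acta2* was called, at -0.27 (adjusted p = 0.00814), in a fit that called 33.1% of all genes. For *Rgs5* the value was -0.06 (SE 1.10), which became 1.48 without the 0 Gy library of replicate 2 and -1.57 without the 2 Gy library. Within pairs, *Rgs5* changed by -0.27, -0.09, 0.50 and -0.01. After 0.1 Gy at 24 h, *Rgs5* was called only with the block and without replicate 3 (-0.58, adjusted p = 0.0465), where 23.2% of all genes were called.

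**Figure D5:**
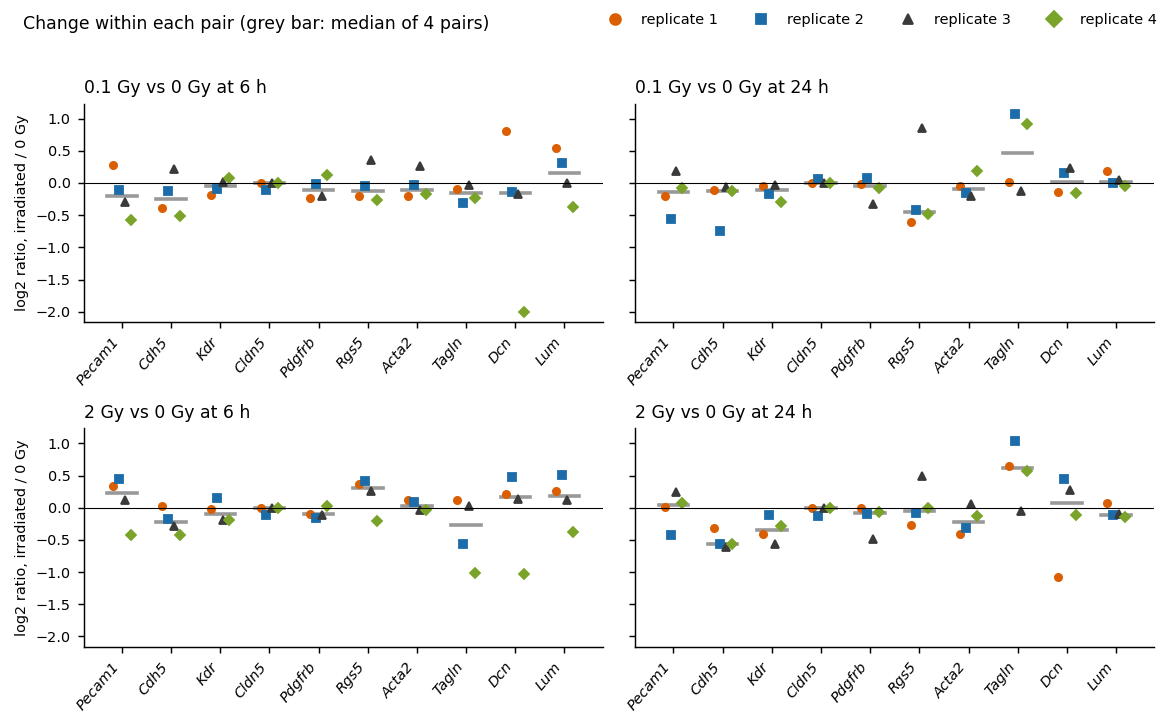
Each point is the log2 ratio of CPM + 0.5 between the irradiated and the 0 Gy library of a replicate number, for the 10 markers in the 4 dose comparisons, and the grey bar is the median of the 4 pairs. At 2 Gy and 24 h *Cdh5*, *Kdr* and *Pdgfrb* lie below 0 in all pairs and *Tagln* above 0 in 3 of 4, while *Dcn* at 6 h spreads from 0.80 to -2.01 after 0.1 Gy.

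*Dcn* shows how much a single library counts at these levels. After 0.1 Gy at 6 h the changes within pairs were 0.80, -0.14, -0.18 and -2.01 in replicates 1 to 4, and after 2 Gy at 24 h they were -1.07, 0.45, 0.27 and -0.12. *Pecam1* was lower in 3 of 4 pairs after 0.1 Gy at each time and higher in 3 of 4 after 2 Gy at each time, with medians from -0.20 to 0.22. Over the markers tested, the median log2 fold change was -0.12, -0.15, -0.06 and -0.15 in the 4 dose comparisons in the order above, beside medians of all genes between -0.0067 and 0.012. In the fits without the block, these changes were smaller than their SE, except that of *Tagln* after 2 Gy at 6 h.

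The other genes of these cell types were tested in the same fits. Of 58 other endothelial, mural, contractile and fibroblast genes, 44, 42, 44 and 40 were tested in the 4 dose comparisons and none was called without the block. With the block, *Ogn* (-0.43, SE 0.12, adjusted p = 0.0491) and *Lox* (-0.54, SE 0.091, adjusted p = 0.0262) were called lower after 0.1 Gy at 24 h. *Ogn* encodes osteoglycin, a small proteoglycan, and *Lox* encodes lysyl oxidase, the enzyme that crosslinks collagen. After 2 Gy at 24 h, *Lox* (-0.72, SE 0.16, adjusted p = 0.0270) and *Postn*, the gene of periostin (-0.36, SE 0.10, adjusted p = 0.0458), were called lower. These 2 of 42 and 2 of 40 genes compare with the 6.84% and 13.2% of all genes called in the same fits. No contractile gene of 11 was called beside *Tagln*. Their blocked log2 fold changes after 2 Gy at 24 h had a median of -0.03.

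Between 6 h and 24 h of culture without irradiation, all 8 markers tested had lower fitted levels at 24 h, but none was called, while 1064 of 15887 genes (6.7%) were. *Dcn* had the largest log2 fold change, -0.99 (SE 0.87, adjusted p = 0.527). *Pecam1* had -0.64 (SE 0.41, adjusted p = 0.381), *Cdh5* -0.62 (SE 0.50, adjusted p = 0.487) and *Kdr* -0.32 (SE 0.29, adjusted p = 0.533). With libraries left out, and no block, these values ran from -2.58 (without replicate 1 of 24 h) to -0.47 (without replicate 4 of 6 h) for *Dcn*. They ran from -0.96 (without all of replicate 2) to -0.39 (without replicate 3 of 6 h) for *Pecam1*. For *Cdh5* they ran from -1.03 (without replicate 2 of 24 h) to -0.33 (without replicate 2 of 6 h), and for *Kdr* from -0.60 to -0.12 (without replicates 2 and 3 of 24 h in turn). *Tagln* had -0.57 (SE 0.38, adjusted p = 0.390), and it was called without the 0 Gy and 24 h library of replicate 3 (-1.14, adjusted p = 0.00933), where 18.6% of all genes were called. At 6 h its 0 Gy libraries had 1091, 871.9, 930.9 and 1230 CPM in replicates 1 to 4, above those of 24 h in replicates 1, 2 and 4 and below that of replicate 3. The median over the 8 markers was -0.45, beside -0.02 over all genes. The direction was not particular to the markers. Lower fitted levels at 24 h were also found for all 10 microglial genes (median -0.28) and for 31 of 41 other vascular, contractile and fibroblast genes tested (median -0.32). Of these 41 genes, *Mfsd2a* (-0.83, SE 0.19, adjusted p = 0.0325) and *Smtn*, the gene of smoothelin in smooth muscle (-1.23, SE 0.23, adjusted p = 0.0170), were called, both lower at 24 h.

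The replicate numbers were not taken as pairs across the times, because replicate 3 at 24 h resembled another number at 6 h more than its own. A fit blocked on the number called 15.3% of all genes and no marker, with -1.32 (adjusted p = 0.104) for *Dcn* and -0.77 (adjusted p = 0.0884) for *Tagln*. In this fit 7 markers were lower and *Rgs5* turned to 0.02. With the GC and length correction as well, *Rgs5* was at -0.24 and *Pdgfrb* turned to 0.08. Of the 41 other genes it called 2 higher at 24 h, *Ocln* (1.03, adjusted p = 0.0259) and *Slco1a4* (0.72, adjusted p = 0.0491), and 5 lower, *Mfsd2a*, *Smtn*, *Col3a1*, *Cnn1* and *Actg2* (-1.27 to -0.71). *Dcn* was called with the block when replicate 1 was left out (-2.21, adjusted p = 0.0261, beside 3.71% of all genes) and with the GC and length correction (-1.57, adjusted p = 0.0315, beside 26.6%). *Tagln* was called with the block when replicate 3 was left out (-1.20, adjusted p = 1.66e-05), beside 45.4% of all genes.

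For each marker, the genes with the most similar levels over the 24 libraries were found among the 14331 genes with a mean CPM of at least 1, by Pearson's r of log2(CPM + 0.5). The libraries share replicate numbers, so r describes these cultures and carries no p. *Rgs5* was closest to *Stum* (r = 0.962, rho 0.815), *Mreg* (r = 0.959, rho 0.83) and *Gabrg1* (r = 0.959, rho 0.864). *Acta2* was closest to *Lgals1* (r = 0.956, rho 0.963), the gene of a galectin, then *Prdx4* (r = 0.907, rho 0.895) and *Hspb6* (r = 0.893, rho 0.914). *Tagln* was closest to *Szrd1*, *Actr1b* and *Arhgdia* (r = 0.955, 0.955 and 0.954, rho 0.959, 0.964 and 0.953), none of them in the contractile list. *Pdgfrb* was closest to *Fzd7* (r = 0.900, rho 0.781), *Sdk2* (r = 0.852, rho 0.823) and *Tub* (r = 0.850, rho 0.745).

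Among the endothelial markers, *Cdh5* was closest to *Loxl2* (r = 0.953, rho 0.950), *Hs2st1* (r = 0.926, rho 0.910) and *Bcat1* (r = 0.926, rho 0.902). *Kdr* was closest to *Bmpr1b* (r = 0.942, rho 0.920), *Slc4a7* (r = 0.940, rho 0.904) and *Ubqln2* (r = 0.929, rho 0.894). *Pecam1* was closest to *2310043P16Rik* (r = 0.840, rho 0.797), *Irak3* (r = 0.831, rho 0.814), a regulator of receptor signalling in macrophages, and *Cd69* (r = 0.830, rho 0.765), an activation marker of leukocytes. *Dcn* was closest to *Pla2g7* (r = 0.812, rho 0.83), *Anxa1* (r = 0.790, rho 0.764) and *Fgf7* (r = 0.787, rho 0.800). *Lum* was closest to *Igf2* (r = 0.879, rho 0.861), *Col3a1* (r = 0.812, rho 0.782) and *Actg2* (r = 0.810, rho 0.763), of which *Igf2* and *Col3a1* are in the fibroblast list. All values of r for *Lum* rest on 0 to 13 counts per library, with 6 libraries at 0. For *Cldn5* the values are not given, since 21 libraries were at 0. Among the markers themselves, r ran from -0.651 (*Acta2* and *Rgs5*) to 0.768 (*Kdr* and *Cdh5*). Markers of different types had values such as 0.732 (*Pdgfrb* and *Kdr*). Within a type, r was 0.717 for *Rgs5* and *Pdgfrb* and 0.699 for *Lum* and *Dcn*, but 0.114 for *Pecam1* and *Cdh5*, -0.0072 for *Pecam1* and *Kdr* and -0.548 for *Acta2* and *Pdgfrb*.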

How the data were processed

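The authors deposited whole-number counts of reads per gene for each of the 24 libraries, without normalization or pooling. The labels name the build mm10, and the study describes poly(A) selection, paired-end sequencing in a single run and RNA isolation on the same day. The aligner, the counter and the strand setting are not given in the sources used here. Groups and replicate numbers came from the labels. Each number stands for a repeat that the labels call biological. In the 36 pairs of libraries within a group the counts differed by more than sampling noise (lowest chi-square per degree of freedom 25.9).

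The 10 markers, the 122 genes of all lists and the tests were chosen with earlier results of these data known. The named genes were the 10 markers and the 3 genes most like each marker except *Cldn5*. From the endothelial, mural, contractile and fibroblast lists, the 3 genes with the highest mean TPM and those called in a dose comparison with or without the block were named. Genes of the astrocyte, microglial, neuronal, oligodendrocyte, ependymal and proliferation lists were also called with the block at 24 h, and most are not named. Other list genes were named after their values were seen.

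Counts were fitted with edgeR 4.0.16 in R 4.3.3 (TMM, edgeR's filter on low counts, quasi-likelihood test, Benjamini-Hochberg adjustment). Each fit used the libraries of the groups compared. SE is the absolute log2 fold change divided by the square root of F. CPM used TMM factors over all 24 libraries, and TPM used the gene lengths in the tables. Ratios within pairs and correlations used log2(CPM + 0.5). Only the edgeR fits for 2 Gy at 24 h, without and with the block, were run on simulated counts. No change as small as those fitted for the markers in this comparison was simulated, nor any change in genes with low counts. The other fits were not simulated. Alternatives were DESeq2 1.42.0, limma 3.58.1 (voom), other scalings in edgeR (size factors of DESeq2, or totals only), no filter, at least 10 counts in every library, the replicate block with and without a correction for GC content and length (splines, 5 degrees of freedom), all 24 libraries in 1 fit, a minimum log2 fold change of 1 in size, and each library or number left out. A fit without all libraries of replicate 2 was chosen after seeing the data.

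Libraries of equal number deviated together from their group means in the 4 dose comparisons (r from 0.514 to 0.907), so the numbers were taken as pairs within a time. The number as a block was not part of the primary design. DESeq2 gave no p for *Rgs5* at 6 h because it marked an outlying count, and no adjusted p for 4 markers at 2 Gy and 24 h (*Pecam1*, *Cldn5*, *Dcn* and *Lum*) and 2 for 24 h against 6 h (*Cldn5* and *Lum*). Intervals and floors cover counting error only.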

Additional observations from a re-analysis of the deposited data

Results flagged for a closer look

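In groups of 4 libraries, a value was set apart when its gap to the nearest other library exceeded Dixon's 95% limit, as a share of the range of the group. Chance sets apart about 1 in 20 groups. Of 57 groups of a marker in which the libraries differed, 14 were set apart, and the groups share the same cultures.

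*Rgs5* in replicate 2 was set apart in all 6 groups. Its gap was 0.937, 0.983 and 0.933 of the range at 0, 0.1 and 2 Gy and 6 h, and 0.84, 0.972 and 0.893 at 24 h, with 7.19 to 15.2 CPM against at most 1.75 CPM in the other libraries. *Pdgfrb* in replicate 2 at 0 Gy and 6 h (77.8 CPM against 62.9 to 65.0) had a gap of 0.859. *Cldn5* in replicate 2 had a gap of 1.0 at 0 Gy and 6 h, 1.0 at 0 Gy and 24 h and 1.0 at 0.1 Gy and 24 h, which rests on 1, 1 and 2 counts beside libraries at 0.

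*Dcn* in replicate 1 had a gap of 0.855 at 0.1 Gy and 6 h (4.34 CPM against at most 0.964), of 0.899 at 0 Gy and 24 h (2.84 against at most 0.419) and of 0.884 at 0.1 Gy and 24 h (2.54 against at most 0.523). *Acta2* in replicate 3 at 2 Gy and 24 h (6324 CPM against 2927 to 3339) had a gap of 0.879.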

How the results depend on the processing

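No marker with an adjusted p was called in any of the 6 comparisons under DESeq2's size factors, library size alone, no filter, at least 10 counts in every library, DESeq2, limma voom or all 24 libraries in 1 fit. With the replicate block 1 marker (*Tagln*) was called for 2 Gy at 24 h, and with the block and the GC and length correction 1 marker (*Dcn*, -1.57, adjusted p = 0.0315) for 24 h against 6 h. With the block, the genes called were 1107 for 0.1 Gy at 24 h, 2100 for 2 Gy at 24 h, 2428 for 24 h against 6 h and 1143 for the interaction. With the GC and length correction as well they were 298, 564, 4219 and 402, and 115 for 2 Gy at 6 h. DESeq2 called 1 gene for 2 Gy at 6 h, 103 for 2 Gy at 24 h, 1999 for 24 h against 6 h and 4 for the interaction. All 24 libraries in 1 fit gave 108 for 2 Gy at 24 h and 2488 for 24 h against 6 h. A minimum log2 fold change of 1 left 564 of the 1064 genes called for 24 h against 6 h without the block. The causes were not tested.

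With libraries left out, singly or as a number in the paired fit, 0 to 13 genes were called for 0.1 Gy at 6 h, 0 to 3728 (0 to 2 markers) for 0.1 Gy at 24 h and 0 to 129 for 2 Gy at 6 h, where both 6 h counts were highest in the paired fit without replicate 4. The ranges were 0 to 5291 (0 to 2 markers) for 2 Gy at 24 h, 170 to 7192 (0 to 1 marker) for 24 h against 6 h and 0 to 3951 (0 to 1 marker) for the interaction, each highest in the paired fit without replicate 3. Without all libraries of replicate 2, no marker was called in any comparison. Among the log2 fold changes of single markers given for 2 Gy at 24 h, the sign changed for *Rgs5* (0.27 by limma voom, 0.27 with block and correction, -1.57 to 1.48 with libraries left out), *Acta2* (-0.46 to 0.023) and *Kdr* (-0.70 to 0.0039), and that of *Pecam1* went from -0.04 to 0.02 with block and correction. At 0 Gy, replicate 3 of 24 h resembled another number at 6 h (r = 0.527) more than its own (0.0887), so the numbers were not taken as pairs across times. Medians of 14.5, 16.5, 29.5 and 44.0 counts per library limit *Pecam1*, *Dcn*, *Rgs5* and *Cdh5*.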
